A study of Mus musculus with 6 samples.

Results

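The genes described here are 7 that make, load, take up or break down the inhibitory transmitter GABA or set the chloride gradient on which its action depends: Gad1, Gad2, Slc32a1, Slc6a11, Abat, Slc12a2 and Slc12a5. They were taken by symbol from the 36291 gene rows of the deposited counts, and all 7 were among the 13835 genes with enough reads to test. Embryos of the Swiss strain were taken at E14.5, and their telencephalon was sorted for eGFP, which marks the cells targeted by an Nkx2-1-iCre driver. There were 3 libraries labelled WT, the controls, and 3 labelled KO, from embryos the series describes as Sip1|Nkx2-1 knockouts (Sip1 is an older name of Zeb2, a zinc finger homeobox transcription factor). A WT and a KO library shared each of the labels K77, K79 and K80. The labels state neither the alleles of the WT embryos beyond the shared sort nor which part of Zeb2 was removed, and do not say whether a library is 1 embryo or several.

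GABA is made from glutamate by the enzymes GAD67 (Gad1) and GAD65 (Gad2), the first spread through the cell and the second attached to vesicle membranes in nerve endings. The vesicular transporter VGAT (Slc32a1) loads it into synaptic vesicles, the plasma membrane transporter GAT3 (Slc6a11) takes it up, mostly into astrocytes, and GABA transaminase (Abat) breaks it down in mitochondria. NKCC1 (Slc12a2) imports chloride and KCC2 (Slc12a5) exports it, and immature neurons, in which import prevails, can be depolarised by GABA. Interneurons of the cortex arise largely in the medial ganglionic eminence (MGE), where Nkx2-1 is expressed, and carry GAD and GABA while they migrate.

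Read depth was 8323531 to 11069437 gene counts per library. Zeb2 itself was lower in every KO library, at 662 ± 133 scaled CPM in WT and 307.7 ± 35.6 in KO (SD, n = 3). Scaled CPM are CPM after TMM scaling between libraries. WT K79 stood apart from the other 5 libraries in sex-linked transcripts, with 26109 Xist and 3 Ddx3y counts against 13 to 28 Xist and 532 to 864 Ddx3y counts. Results that move when it is left out are given both ways. Markers of the MGE lineage (Nkx2-1, Lhx6, Lhx8, Sst, Sox6, Dlx1, Dlx2 and Dlx5) were present in every library, their summed level 4215 to 4791 scaled CPM in WT and 4793 to 5508 in KO.

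The starts of the 2 GAD genes and of the vesicular transporter gene, on which the ratios turn, are shown first. In each 300-base window, from 250 bases before to 50 bases after the annotated start, capitals mark CACCT or its reverse complement AGGTG, letters that Zeb2 is known to bind. The sequences are RefSeq's on GRCm38.p6, plus strand, 5′ to 3′, at chr2:70561879-70562178 for Gad1, chr2:22622077-22622376 for Gad2 and chr2:158610508-158610807 for Slc32a1.
Gad1: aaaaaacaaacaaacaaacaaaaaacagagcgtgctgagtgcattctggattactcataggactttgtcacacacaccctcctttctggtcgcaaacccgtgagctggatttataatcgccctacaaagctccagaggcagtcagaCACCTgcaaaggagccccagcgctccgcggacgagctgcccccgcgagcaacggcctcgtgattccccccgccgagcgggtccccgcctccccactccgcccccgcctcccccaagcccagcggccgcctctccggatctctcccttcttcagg
Gad2: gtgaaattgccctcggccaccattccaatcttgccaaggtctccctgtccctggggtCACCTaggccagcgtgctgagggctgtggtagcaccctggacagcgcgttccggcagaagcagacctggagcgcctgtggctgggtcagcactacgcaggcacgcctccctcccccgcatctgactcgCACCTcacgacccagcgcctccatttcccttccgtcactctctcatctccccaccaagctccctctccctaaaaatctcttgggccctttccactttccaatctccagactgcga
Slc32a1: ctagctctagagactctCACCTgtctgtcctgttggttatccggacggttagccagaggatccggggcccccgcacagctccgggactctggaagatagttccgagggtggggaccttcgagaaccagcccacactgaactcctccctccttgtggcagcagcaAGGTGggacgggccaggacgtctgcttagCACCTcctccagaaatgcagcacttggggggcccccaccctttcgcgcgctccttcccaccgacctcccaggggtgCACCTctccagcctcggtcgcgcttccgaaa
The Gad1 window held 1 such match, 104 bases before the start, and it lies within the longer E-box CACCTG. The Gad2 window held 2, at 193 and 65 bases before the start, and 0 CACCTG. The Slc32a1 window held 4, at 233, 86 and 57 bases before the start and 20 bases after it, of which 1 is also CACCTG. Of 32851 mouse promoter windows of this length, 51.9% held CACCT and 20.2% held CACCTG on either strand, so a match in one window is common. Windows were found for 5 of the 7 genes (also Slc6a11 and Slc12a5, not Slc12a2 or Abat). The Slc6a11 window and both Slc12a5 windows each held 2 matches of CACCT or AGGTG and 1 CACCTG. The shares above count windows with any match and give no rate for several matches in 1 window. TAATTA, a core that homeodomain factors such as the Dlx proteins bind, was in 5.29% of all windows and in 0 of the windows of these 5 genes. These matches are letters in a sequence, and binding was not measured here.

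Of the 7 genes, Gad2 and Abat rose in KO, Slc32a1 fell, and Gad1, Slc6a11, Slc12a2 and Slc12a5 did not pass the test. In edgeR's quasi-likelihood test 6.27% of all tested genes passed an adjusted p of 0.05 (3.64% higher and 2.62% lower in KO). Blocking on the K number, which was taken to pair the libraries, gave 10.6% (6.13% higher and 4.45% lower), and the same 3 genes passed. The list was drawn up with earlier results of these data known, so its share of 3 in 7 is a description. In a sorted population, fewer cells that express a gene and less RNA per cell cannot be told apart.

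Of the 2 GAD genes, Gad2 rose and Gad1 did not pass the test. Gad2 stood at 662 (K77), 638 (K79) and 715 (K80) scaled CPM in WT and at 1080.4, 936 and 964 in KO. Every KO library lay above every WT library, and the KO level was higher within each K number. The mean went from 672 ± 39.5 to 993 ± 76.6 scaled CPM (SD, n = 3), a 1.48-fold rise with a 95% interval of 1.32 to 1.65 (log2 fold change 0.56, SE 0.0714, edgeR adjusted p = 0.00124). In mean level over all libraries of both genotypes, Gad2 ranked above 99.4% of tested genes, unadjusted for gene length.

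Gad1 levels were 390.5, 318 and 384 scaled CPM in WT and 381, 306 and 319.6 in KO, for K77, K79 and K80. The genotypes overlapped, and the K79 library was the lowest of each genotype. The log2 fold change was -0.12 (SE 0.1005, edgeR adjusted p = 0.61), and the 95% interval of the KO to WT fold, 0.789 to 1.08, does not reach the fold of Gad2. Gad1 overlaps an antisense gene, Gad1os, which received 47 counts over all 6 libraries, and the sources used here do not say whether counting used strand.

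The balance between the GAD transcripts can be read within each library without any scaling. The Gad1/Gad2 count ratio was 0.590, 0.498 and 0.536 in WT K77, K79 and K80, and 0.353, 0.327 and 0.332 in KO. Every KO ratio lay below every WT ratio. The log2 ratio went from -0.89 ± 0.122 to -1.57 ± 0.0593 (SD, n = 3), a ratio 1.604-fold lower in KO. The two-sided exact permutation p was 0.1, the smallest that 3 against 3 libraries allow (0.133 adjusted over 4 ratios compared). Within the K numbers the log2 difference was -0.74, -0.61 and -0.69.

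**Figure D1:**
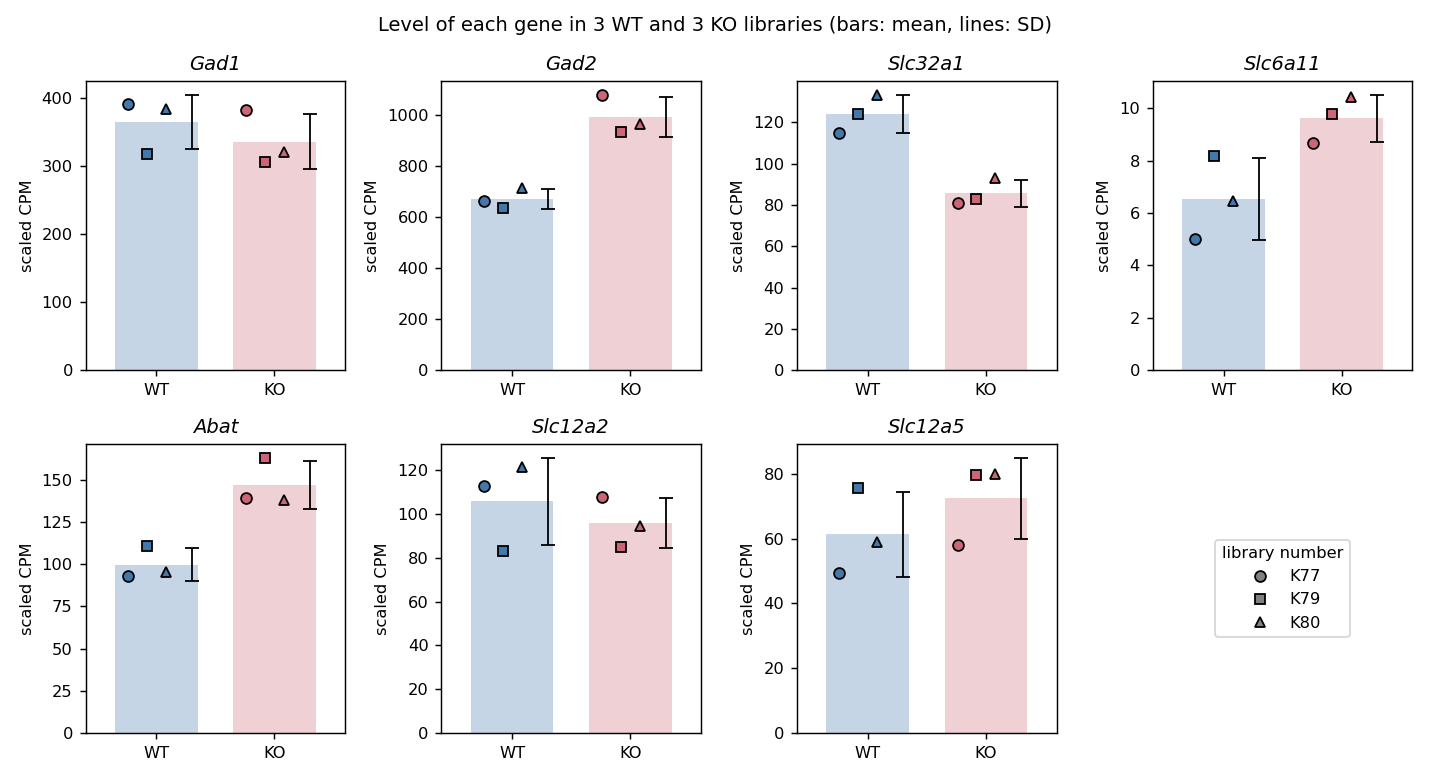
Level of each of the 7 genes in scaled CPM (vertical axis, from 0) in WT and KO; points are libraries, marked by K number, bars are means and lines the SD of 3 libraries. KO points of Gad2, Abat and Slc6a11 lie above, and those of Slc32a1 below, all WT points, while Gad1, Slc12a2 and Slc12a5 overlap. Slc6a11 did not pass the test.

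**Figure D2:**
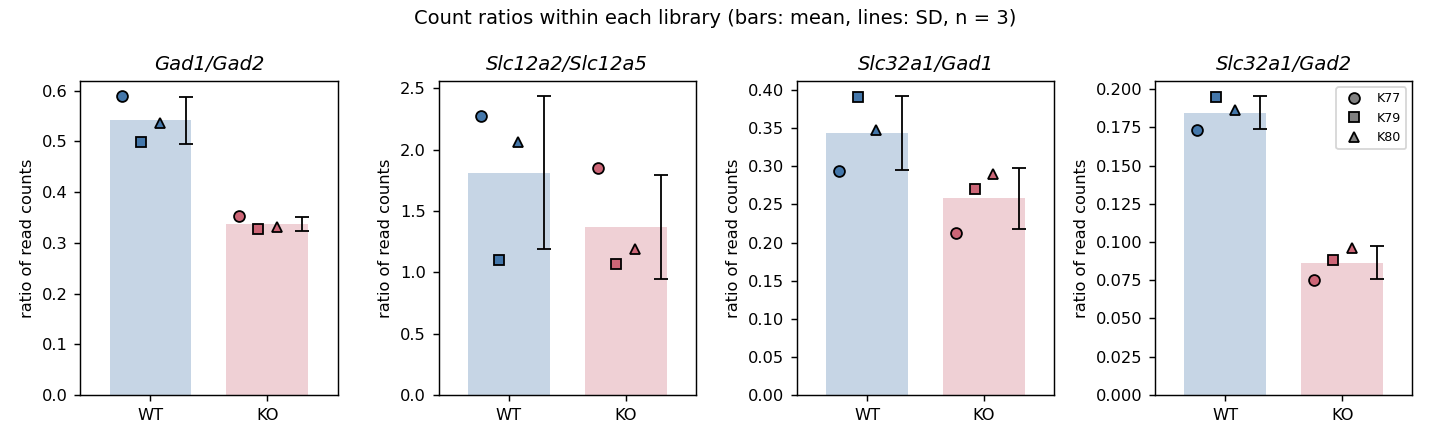
Ratio of raw read counts within each library (vertical axis, from 0) for 4 gene pairs, with points for libraries, bars for means and lines for the SD of 3. Gad1/Gad2 and Slc32a1/Gad2 separate the genotypes widely, and Slc12a2/Slc12a5 overlaps, with both K79 libraries near 1.1.

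The vesicular transporter went the other way from Gad2. Slc32a1 stood at 115, 124 and 133 scaled CPM in WT K77, K79 and K80 and at 81.0, 82.7 and 92.8 in KO. The genotypes did not overlap, and the order of the K numbers was the same in both. The mean fell from 124 ± 9.29 to 85.5 ± 6.38 scaled CPM (SD, n = 3), 1.45-fold lower (log2 fold change -0.53, SE 0.0779, edgeR adjusted p = 0.00283). No overlap between genotypes was seen for 4 of the 7 genes, against 23.2% of all tested genes.

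Slc32a1 was also set against the enzymes within each library. The Slc32a1/Gad2 count ratio was 0.173, 0.195 and 0.186 in WT and 0.0750, 0.0884 and 0.0963 in KO. It was 2.14-fold lower in KO (log2 difference -1.10, exact permutation p = 0.1, the smallest possible, 0.133 adjusted). Relative to Gad1 the ratio went from 0.344 ± 0.0486 to 0.258 ± 0.0405 (SD, n = 3). That is 1.34-fold lower, with KO K80 (0.290) just below WT K77 (0.293) and no overlap (exact permutation p = 0.1, 0.133 adjusted).

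The neighbourhood of Slc32a1 bears on its count. In GENCODE M21 the noncoding gene Gm14204 lies on the opposite strand 43 bases before Slc32a1, and the antisense gene Gm14205 lies inside it. Gm14205 received 5 counts in all. Gm14204 received more reads than Slc32a1 in each library, at 244 ± 60.5 scaled CPM in WT and 185 ± 34.5 in KO (SD, n = 3). Its log2 fold change was -0.40 (SE 0.178, edgeR adjusted p = 0.271, and 0.00949 with the K number as a block). Reads marked ambiguous were left out of the counts. The counts do not show how reads near the 43-base gap between the 2 genes were assigned. The sources used here do not name the annotation used for counting.

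Removal of GABA was represented by a breakdown enzyme that rose and an uptake carrier with few reads. Abat stood at 93.1, 111 and 95.4 scaled CPM in WT and at 139, 163 and 138 in KO (K77, K79, K80). Every KO library lay above every WT library, and the K79 library was the highest of each genotype. The rise was 1.47-fold, from 99.8 ± 9.65 to 147 ± 14.3 scaled CPM (SD, n = 3), with a 95% interval of 1.28 to 1.69 (log2 fold change 0.56, SE 0.0888, edgeR adjusted p = 0.00458). Within the K numbers its log2 difference was 0.58, 0.56 and 0.53.

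Slc6a11 was the least abundant of the 7, with 46, 85 and 68 counts in WT and 72, 99 and 115 in KO. In scaled CPM the WT libraries were at 5.02, 8.16 and 6.46 and the KO libraries at 8.66, 9.77 and 10.4. The genotypes did not overlap, but WT K79 came close to KO K77. The log2 fold change of 0.55 (SE 0.191) was of the size of that of Gad2. It did not pass (edgeR adjusted p = 0.139, and 0.0656 with the K number as a block). Without WT K79 the log2 fold change was 0.74 and passed (adjusted p = 0.0484).

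Neither chloride transporter gene passed the test, and in both the genotypes overlapped. Slc12a2 stood at 113, 83.3 and 122 scaled CPM in WT K77, K79 and K80 and at 108, 85.1 and 94.7 in KO. The log2 fold change was -0.14 (SE 0.133, edgeR adjusted p = 0.641), with a 95% interval of the fold of 0.736 to 1.11. Slc12a5, the exporter, stood at 49.5, 75.5 and 59.0 in WT and at 58.1, 79.6 and 79.9 in KO. It was higher in KO within each K number (log2 difference 0.23, 0.08 and 0.44), but both WT K79 and WT K80 lay within the KO range. Its log2 fold change was 0.24 (SE 0.159, edgeR adjusted p = 0.485), with a 95% interval of the fold of 0.925 to 1.51.

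The count ratio Slc12a2/Slc12a5 was 2.28, 1.10 and 2.06 in WT and 1.85, 1.07 and 1.19 in KO. Both K79 libraries and KO K80 had near equal counts of both genes, and KO K77 and KO K80 lay within the WT range. These counts are not adjusted for gene length. Per kilobase of merged exons, Slc12a5 was above Slc12a2 in WT K79, at 10.1 against 7.63 scaled CPM. The same held in KO K79 (10.7 against 7.79) and KO K80 (10.7 against 8.68), and the reverse in WT K77, WT K80 and KO K77. The ratio was 1.30-fold lower in KO on average (log2 0.79 ± 0.567 against 0.41 ± 0.422, SD, n = 3), within the spread of the libraries (exact permutation p = 0.3). It was lower in KO within each K number, by a log2 difference of -0.30, -0.05 and -0.80. Without WT K79 the difference in log2 ratio was -0.70 (exact permutation p = 0.2).

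Levels of different genes can be set side by side only per length. Per kilobase of merged exons in GENCODE M21, WT libraries held 114 ± 6.72 scaled CPM of Gad2, 47.7 ± 5.24 of Gad1, 44.3 ± 3.32 of Slc32a1 and 12.9 ± 1.24 of Abat (SD, n = 3). Slc12a2 followed at 9.69 ± 1.83 scaled CPM per kilobase, Slc12a5 at 8.24 ± 1.77 and Slc6a11 at 1.30 ± 0.311. The neighbours Gad1 and Slc32a1, and Slc12a2 and Slc12a5, overlapped in WT, and the other neighbours did not. In KO the level per kilobase was 43.9 ± 5.27 for Gad1 and 30.6 ± 2.28 for Slc32a1, which no longer overlapped, and 169 ± 13.0 for Gad2. Slc12a5 (9.74 ± 1.68) and Slc12a2 (8.77 ± 1.04) still overlapped in KO. These lengths count every annotated exon and do not show which isoforms were present.

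Other genes of the pathway were read from lists. For comparison, 3.64% of all tested genes rose and 2.62% fell, or 6.13% and 4.45% with the block. In the list of GABA synthesis, breakdown and precursor supply, 3 of 17 tested genes rose, 0 fell and 14 were not called. The block gave 4 higher and 0 lower, as did leaving out WT K79. Besides Gad2 and Abat, the riser was Aldh5a1, which oxidises the product of GABA transaminase, succinic semialdehyde. It went from 55.7 ± 3.70 to 71.5 ± 5.20 scaled CPM (SD, n = 3; log2 fold change 0.36, SE 0.0819, edgeR adjusted p = 0.0297). It was not called when any of WT K77, WT K80, KO K79 and KO K80 was left out, at an adjusted p of at most 0.153. The median log2 fold change of the list was -0.02, against -0.01 over all tested genes, and Gls2, Aldh1a1 and Maob had too few reads.

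Of 5 tested GABA transport genes only Slc32a1 passed. Without WT K79, 1 rose and 2 fell. The taurine transporter gene Slc6a6 differed by 0.12 (adjusted p = 0.376). Slc6a12, Slc6a13 and Best1 had too few reads, with 1, 17 and 35 counts over the 6 libraries. The list's median was 0.05.

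Among cation-chloride cotransporters and the kinases that regulate them, edgeR called 0 of 17 tested genes, and the K number as a block gave 2 higher and 1 lower. The nearest were the potassium-chloride cotransporter genes Slc12a7 (log2 fold change 0.28, adjusted p = 0.0627, blocked 0.0148) and Slc12a4 (-0.51, adjusted p = 0.0744, blocked 0.0397). Without WT K79, Slc12a7 passed unblocked (0.33, adjusted p = 0.0413). Neither overlapped between genotypes. At an unadjusted p of 0.05, 4 of the 17 would pass, against 18.4% of all tested genes, and DESeq2 and limma voom each called 0. The list's median was 0.03, with values from -0.51 to 0.28.

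In the list of other chloride and bicarbonate handling, 1 of 21 tested genes rose and 1 fell, or 4 and 1 when blocked on the K number. Over all tested genes 3.64% rose and 2.62% fell, or 6.13% and 4.45% when blocked. The sodium-driven chloride/bicarbonate exchanger gene Slc4a8 rose from 147 ± 8.77 to 205 ± 3.99 scaled CPM (SD, n = 3; log2 fold change 0.49, edgeR adjusted p = 0.000952). The carbonic anhydrase gene Car2 fell 3.38-fold, from 8.90 ± 2.50 to 2.63 ± 0.259 (log2 fold change -1.76, adjusted p = 0.00253). The list's median was 0.09. Without WT K79 the risers numbered 3, and without KO K77 they numbered 2.

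Transcription factors of GABAergic forebrain neurons moved in both directions. Of 13 tested, 3 rose and 4 fell, and 6 were not called. The block gave 4 higher and 4 lower, as did leaving out WT K79. Sp9 fell by 1.12 on the log2 scale (232.7 ± 49.6 to 107 ± 7.11 scaled CPM) and Dlx6 by 0.40. Nkx2-1 rose by 0.70 (384 ± 60.3 to 625 ± 34.8 scaled CPM). EdgeR adjusted p was from 0.00101 to 0.0164 for these 3 (SD, n = 3). Dlx6 was no longer called when WT K77, KO K79 or KO K80 was left out, its adjusted p then reaching at most 0.0754. It overlaps an antisense transcript, so its count is uncertain. Fallers numbered 1 when WT K77, KO K79 or KO K80 was left out and 2 when WT K80 was. The list's median was 0.09.

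**Figure D3:**
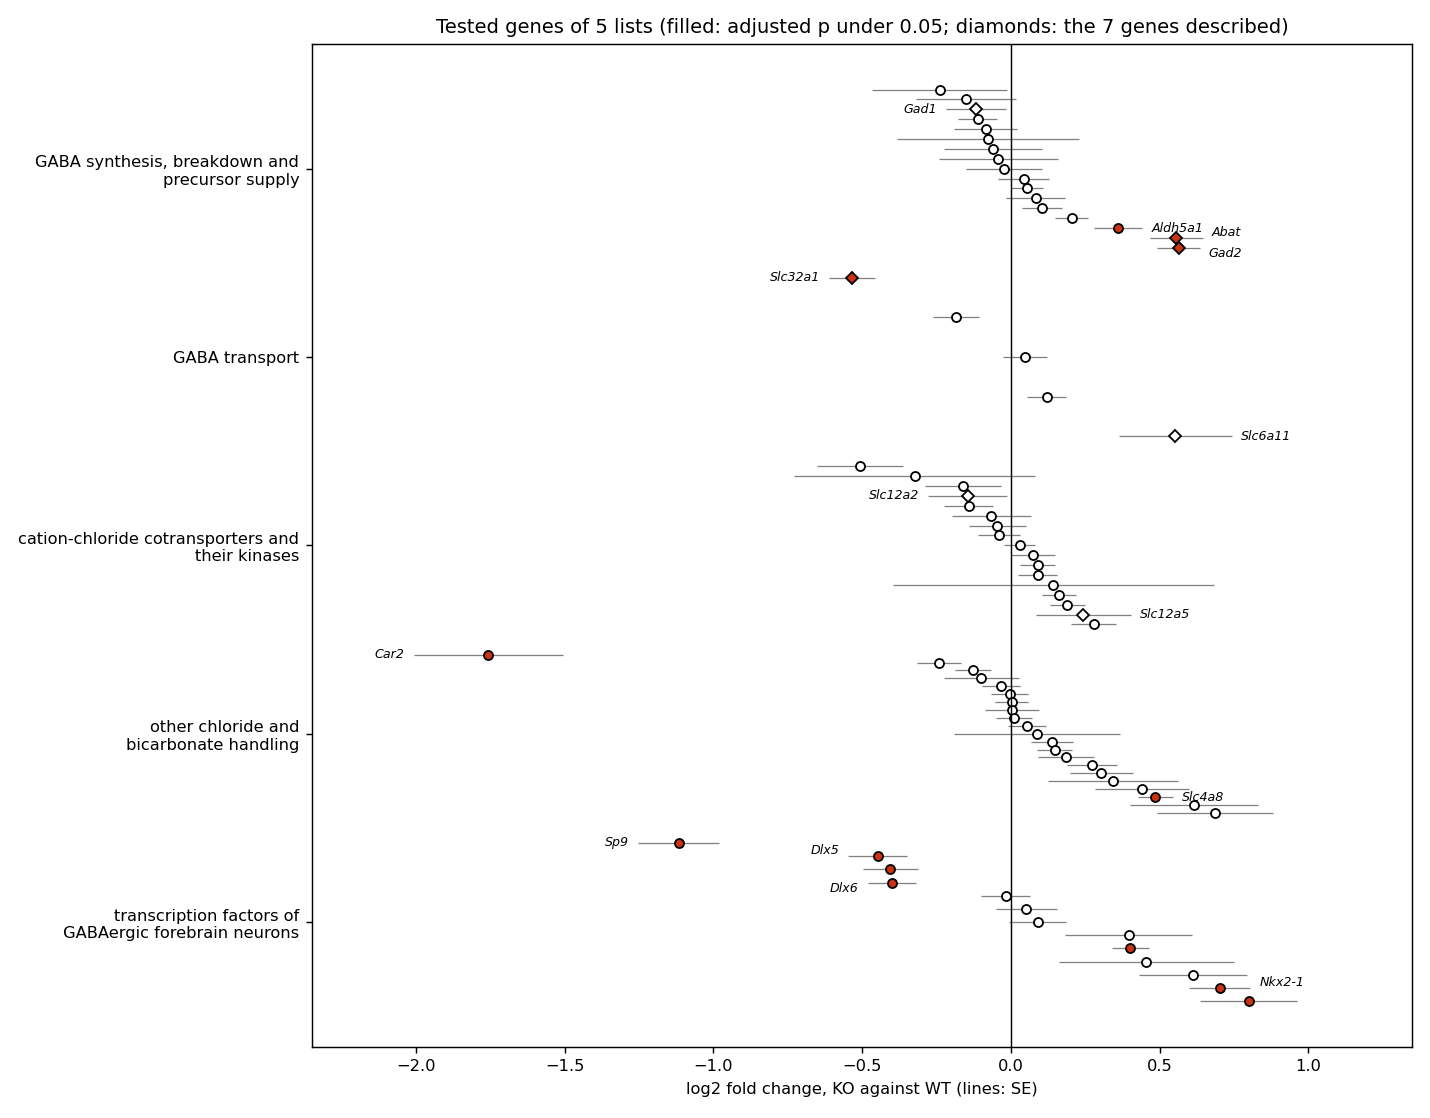
Log2 fold change, KO against WT (horizontal axis, lines are the SE), of each tested gene in 5 lists; red symbols passed an adjusted p of 0.05 and diamonds are the 7 genes described. Gad2 and Abat stand to the right with Aldh5a1, Slc32a1 stands to the left, and the cotransporters and their kinases lie between -0.51 and 0.28 with no call.

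The levels of markers of other cells in the sort were read beside these genes. To set beside each marker list, 3.64% of all tested genes rose and 2.62% fell, or 6.13% and 4.45% with the block. Oligodendrocyte precursor markers fell in 5 of 6 genes, and in 6 with the block (also Olig2, blocked adjusted p = 0.0148 in edgeR). Their summed level was 126 to 148 scaled CPM in WT and 50.9 to 59.3 in KO. The log2 fold change was -2.29 for Pdgfra, -1.81 for Olig1 and -4.07 for Gpr17. Of 8 genes of dividing cells 2 fell, Ccna2 by 0.38 and Mcm6 by 0.37, and 5 fell with the block (also Top2a, Ccnb1 and Cdk1, blocked adjusted p = 0.00184, 0.025 and 0.0442 in edgeR). Their sums were 1180 to 1621 scaled CPM in WT and 923 to 1199 in KO. Ccna2 was not called without KO K80 (adjusted p = 0.0568). Their part in the differences of Gad2, Abat and Slc32a1 was not tested.

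Radial glia and astrocyte markers summed to 1236 to 1431 scaled CPM in WT and 1241 to 1409 in KO, with 0 of 11 tested called by edgeR. With the block edgeR called 2 higher (Slc1a3 and Slc1a2, blocked adjusted p = 0.00651 and 0.0183) and 1 lower (Vim, 0.0218). Slc1a2 also passed unblocked without WT K79 (log2 fold change 0.58, adjusted p = 0.00954). At an unadjusted p of 0.05, 4 of the 11 would pass, against 18.4% of all tested genes, and DESeq2 and limma voom each called 1 lower. The astrocyte marker Gfap had 4 counts over the 6 libraries. The highest sum of each genotype was in K79, as it was for the list of dividing cells. Any link to the low Slc12a2 of K79 was not tested. Of 10 genes of postmitotic and maturing neurons Gap43 rose by 0.60 and Rbfox3 fell by 0.46. The block gave 1 higher and 2 lower (also Dcx, blocked adjusted p = 0.0388 in edgeR). Dcx also passed unblocked without WT K79 (log2 fold change -0.44, adjusted p = 0.00276). The call of Gap43 depended on each of WT K77, WT K80, KO K79 and KO K80, with an adjusted p of at most 0.133 when one was left out. Their sums overlapped, at 8167 to 9834 scaled CPM in WT and 8116 to 8563 in KO. Of 8 MGE markers 2 rose (Nkx2-1 and Sox6, the latter by 0.35) and Dlx5 fell by 0.45. The block gave 3 higher (also Lhx8, blocked adjusted p = 0.0098 in edgeR) and 1 lower. Without WT K79, Lhx8 passed unblocked as well (log2 fold change 0.92, adjusted p = 0.000215). The calls of Sox6 and Dlx5 were each lost without 4 of the 6 libraries, WT K77, KO K79 and KO K80 in both cases, then KO K77 for Sox6 and WT K80 for Dlx5 (adjusted p at most 0.0694 and 0.13).

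Glutamatergic markers, which include the vesicular glutamate transporters, were carried at 219 to 471 scaled CPM in WT and 247 to 319 in KO. Markers of blood vessel, meningeal, blood and immune cells summed to 30.7 to 54.9 scaled CPM in WT and 31.8 to 48.3 in KO, with 0 Hba-a1 counts in any library. EdgeR called 0 of 10 glutamatergic and 0 of 11 tested vessel, blood and immune markers. Without WT K80 the glutamatergic marker Eomes passed in edgeR (adjusted p = 0.027). Eomes was named after its values were seen. The block gave 0 in the first list and 1 higher (Col1a2, blocked adjusted p = 0.0221) and 1 lower (Hbb-y, 0.0217) in the second. At an unadjusted p of 0.05, 2 and 1 would pass, against 18.4% of all tested genes, and DESeq2 and limma voom called 0 in both lists. Their part in the GABA gene differences was not tested.

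**Figure D4:**
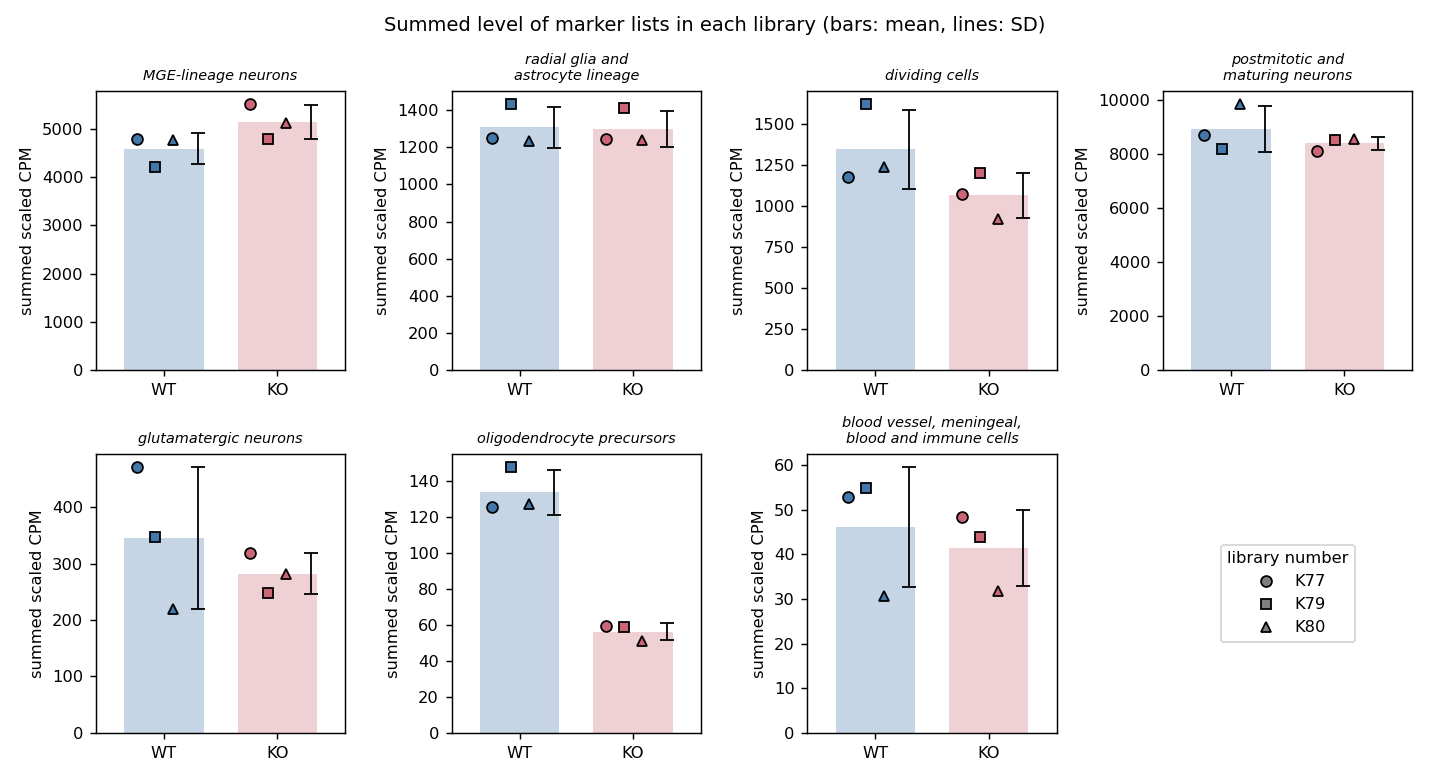
Summed scaled CPM of each marker list (vertical axes, from 0) by library, with bars for means and lines for the SD of 3 libraries. Oligodendrocyte precursor sums separate the genotypes, at 126 to 148 in WT and 50.9 to 59.3 in KO. MGE-lineage sums nearly meet without overlap, at 4215 to 4791 in WT and 4793 to 5508 in KO. Sums of radial glia, dividing cell, postmitotic neuron, glutamatergic and vessel lists overlap.

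The genes most like each member over the 6 libraries, by Pearson's r of log2 CPM, are given as a description. They were sought among 11032 genes with a mean of at least 5 CPM. All share libraries and depth, and so many genes compared over 6 libraries give high values. The r includes the difference between WT and KO, so genes picked for following a called member tend to share its direction by selection. Gad2 was matched most closely by Acpl2 (r = 0.996), Mical2 (0.993) and Sytl5 (0.992), which rose by 1.02, 1.77 and 1.43 on the log2 scale. Abat was matched by Cyld (0.999), Sesn3 (0.996) and Rtl1 (0.995), which rose by 0.40, 0.57 and 1.83. Slc32a1 was matched by Gins2 (0.999), Smyd2 (0.993) and Gtf2f1 (0.992), none of which passed the test (log2 fold change -0.46, -0.27 and -0.18). Gad1 was matched by Setd7, Dcaf12 and Grip2 (r = 0.991 to 0.997). Slc12a2 was matched by Actr3 and B3gat3 (0.994 and 0.983) and Slc12a5 by Ift81, Gnptab and Accn1 (0.991 to 0.994), none of them called.

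In the authors' deposited table the same 3 genes passed an adjusted p of 0.05, as did 8.10% of the genes tested here. It gave log2 fold changes of 0.56 for Gad2 (adjusted p = 5.4e-07), 0.56 for Abat (1.19e-06) and -0.54 for Slc32a1 (4.18e-06). In the authors' deposited table Slc6a11 had an adjusted p of 0.15, Slc12a5 of 0.202, Slc12a2 of 0.663 and Gad1 of 0.691.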

How the data were processed

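Poly-A selected RNA of the sorted cells was sequenced as single reads, per the labels' protocols. The deposited files hold raw read counts per gene. The authors' deposited comparison holds, per the file headers, p-values and a KO to WT ratio with its log2. Tools in the submitters' processing notes are DESeq 1.2.2, HTSeq 0.5.3p3 and TopHat 1.2.0, with the build mm9 and no role for any; no source used here names the annotation or the strand setting. Rows naming no gene (19.7 to 21.8% no_feature, 1.94 to 1.99% ambiguous) were left out.

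Counts were tested in R 4.3.3 with edgeR 4.0.16 (TMM, filterByExpr with a minimum count of 10, quasi-likelihood test, Benjamini-Hochberg adjustment over 13835 genes), and the method was tested on simulated data. The SE is the log2 fold change over the square root of F. Ratios of counts were compared by two-sided exact permutation. Alternatives were RLE size factors, DESeq2 1.42.0, limma 3.58.1 voom, other filters, the K number as block and each library left out; leaving out both K79 libraries was chosen after seeing the data.

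Libraries sharing a K number deviated together (correlation across genes 0.256, 0.197 and 0.175, against -0.176 to -0.00936 between unlike numbers). Deviations were taken from each genotype's own mean, so positive values within numbers force negative ones between unlike numbers on average. That contrast is therefore partly arithmetic. Each correlation within a number was above 0.1, so the number was taken to pair them. The labels do not say what the number stands for. Blocked values are given where they change a count of calls. Separate embryos are not stated, and p-values then measure only how far these libraries spread, which may be technical. Members and lists were chosen with earlier results of these data known. Named were all 7 genes, Zeb2, up to 4 called genes per pathway list by lowest p, the 7 aside (2 where no other gene was called), up to 3 per marker list, the 3 genes most like each of 6 members, and genes overlapping a member; marker genes called with the block alone were named after their values were seen. Results of a few genes this rule names are not reported here.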

Additional observations from a re-analysis of the deposited data

How the results depend on the processing

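Of 91 values of the 7 genes under alternatives, 90 kept their direction and their side of the threshold, and Slc6a11 alone crossed it. Leaving out 1 library gave Slc6a11 a log2 fold change of 0.40 to 0.74, past the threshold without WT K79 (0.74, adjusted p = 0.0484). Gad2, Abat and Slc32a1 kept their calls in every alternative (adjusted p at most 0.00901, 0.0238 and 0.0367). The 40 alternative values of the 4 ratios kept their direction, and the Slc12a2/Slc12a5 log2 difference ranged from -0.70 to -0.18 with 1 library left out. With the K number as a replicate block the mean log2 difference within pairs was -0.68 for Gad1/Gad2 (exact sign-flip p = 0.25, the smallest possible), and no call among the 7 genes changed.

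Over all genes, 504 were higher and 363 lower in KO. The block gave 848 and 615, and no filter on low counts gave 546 lower. Leaving out 1 library gave 270 to 645 higher and 175 to 399 lower, the lowest without KO K80, with 310 and 218 without WT K77 and 287 and 211 without KO K79. With 1 library left out, GABA transport genes numbered 0 to 1 higher and 1 to 2 lower, cotransporters and kinases 0 to 1 higher, other chloride genes 1 to 3 higher, and GABAergic transcription factors 1 to 4 lower. With no filter, cotransporters and kinases numbered 1 higher and 1 lower and other chloride genes 3 higher. With the block these counts were 2, 1 and 4. The cause was not tested. With 46 to 115 counts per library, Slc6a11 is the gene for which depth limits the comparison most.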
